A study of Mus musculus with 17 samples.

Results

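The genes described here code for the steps of glycolysis, for the transporters and kinases that feed and steer it, and for other products that cells make when oxygen runs low. They were chosen by name, as 34 symbols. No cutoff on a measured value was applied, but earlier results of these data were known when they were chosen. In Gencode vM21 the symbols matched 35 of the 55450 genes of the count table, since Aldoa names both the main aldolase gene (chr7:126795234-126800751, GRCm38) and an adjacent entry (chr7:126800790-126809108, ENSMUSG00000114515.2), which is called the second Aldoa entry below. All 35 passed the filter on low counts in every comparison.

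RNA was sequenced from peritoneal tumors of AB12, a murine mesothelioma cell line, grown in 8-week-old female BALB/c mice, with 1 library per mouse. Untreated tumors were collected 6 (n = 3), 10 (n = 5) and 14 days (n = 3) after the cells had been placed in the peritoneum, and these are called untreated d6, d10 and d14. Tumors of mice given anti-CTLA4 (clone 9D9, 200 µg per peritoneal injection), an antibody to a brake on T cell activation, were collected at d10 (n = 3) and d14 (n = 3). Every mouse carried AB12 tumors, and no library of normal mesothelium or of cultured AB12 cells was analysed here. Per the study, the mice of the treated d14 tumors were injected on d6 and d10. For the treated d10 tumors, the days of the injections before collection were not given in the sources used here. Each library holds the RNA of tumor tissue with its mixed cells, so fewer cells of a type and less RNA per cell cannot be told apart in any of the values below. Which part of a tumor was taken was not given in the sources used here.

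Glycolysis splits glucose into pyruvate through a preparatory phase that spends energy and a pay-off phase that returns it, and lactate dehydrogenase turns the pyruvate into lactate when it is not burned in mitochondria. When oxygen is scarce, prolyl hydroxylases stop marking the HIF alpha subunits for destruction, and HIF then binds a short DNA element near genes of glucose uptake, glycolysis, acid export, iron and oxygen handling and mitochondrial turnover. Many tumors run glycolysis at a high rate even with oxygen at hand, and activated T cells and macrophages also induce parts of the same program.

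The core of that HIF-binding element is 5 bases long, ACGTG or GCGTG, and the letters were searched on both strands in the 300 bases around RefSeq transcript starts (250 before and 50 after, GRCm38.p6). On the opposite strand these cores read CACGT and CACGC, and the palindrome CACGTG holds ACGTG on both strands, so matches can overlap. Of the 31 symbols with a RefSeq entry, 28 (90.3%) had at least 1 match, against 46.7% of 27025 genes. A gene with several starts has more chances of a match. Counted by promoter, 35 of 45 (77.8%) had a match, against 43.8% of 32851. Eno2, Tpi1 and Gpi1 had none in this window. Member promoters also held more CpG, with a median of 21 per 300 bases against 7 over all 32851 promoters, and the part of this in the share of matches was not tested. The windows of 30 bases below were chosen because they come from members that were higher (Slc16a3, Pfkfb3 and Egln3) or lower (Gapdh, Pgk1, Ldha, Bnip3 and Higd1a) in treated than in untreated d14 tumors. They are examples picked after the values were seen, from 3 of the 4 higher and 5 of the 14 lower members, and no difference between the sets is to be read from them. The windows of Slc16a3, Pfkfb3, Egln3, Pgk1 and Ldha hold the ACGTG core, those of Gapdh and Higd1a the GCGTG core and that of Bnip3 both. Each is written 5′ to 3′ on the strand of its gene, with every match on either strand in capitals.
Slc16a3 (chr11:120949034-120949063, plus strand): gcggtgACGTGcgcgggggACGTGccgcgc
Pfkfb3 (chr2:11502126-11502155, minus strand): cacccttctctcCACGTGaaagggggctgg
Egln3 (chr12:54204086-54204115, minus strand): tgtgcatctcagACGTGagatccaggtttt
Gapdh (chr6:125165805-125165834, minus strand): gagcccaCACGCttggtGCGTGcacatttc
Pgk1 (chrX:106186947-106186976, plus strand): aggACGTGacaaatggaagtagCACGTctc
Ldha (chr7:46845751-46845780, plus strand): gcctaCACGTGggttcccgCACGTccgctg
Bnip3 (chr7:138909597-138909626, minus strand): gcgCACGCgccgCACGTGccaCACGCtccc
Higd1a (chr9:121857847-121857876, minus strand): ggtctagcctGCGTGCGTGgcgttcgcgga
A match describes the letters only and does not show that HIF bound there in these tumors.

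Levels are given as normalized CPM, which are counts scaled to a common library size with TMM factors over all 17 libraries, and each fold change comes from edgeR's quasi-likelihood test with adjusted p-values over all genes tested. A member passed the test when its adjusted p-value was below 0.05. The share of all genes without overlap was counted for treated against untreated d14 tumors and for the parts of untreated d10 only. In other comparisons a lack of overlap describes the named members only. Total counts lay between 46371577 and 96759833 per library. Untreated d10 replicates 4 and 5 stood apart from replicates 1 to 3 of the same label: in 19 of the 35 members both lay above the other d10 tumors (31.7% of 17258 genes did) and in 7 both lay below (26.1% of genes). The means of replicates 4 and 5 were 2.27 times those of replicates 1 to 3 for Eno1, 1.79 times for Ldha and 1.76 times for Pgk1, and 0.62 times for Gapdh. Per the study's methods, the libraries came from several sequencing projects and from either of 2 instruments, and the authors left out genes that differed between projects in their own work, which the deposited counts still hold. Which library belongs to which project was not given in the sources used here, so project and group cannot be told apart. One value that set libraries apart was the share of near-identical copies in the summed counts of Gapdh and its copies, which was 12.3% to 14.9% in untreated d6 tumors and d10 replicates 1 to 3 and 19.2% to 29.4% in all other libraries. Because of the split among the untreated d10 tumors, comparisons with that group are also given with each part of it. Replicates 1 to 3 have the lower copy share, as the d6 tumors do, and replicates 4 and 5 the higher one. Where compared tumors differ in this share, their group and whatever set those libraries apart cannot be told apart. Treated d14 replicates 1 and 3 held RNA of pancreas acinar genes (0.277% and 0.0951% of counts, against at most 0.000393% in the other libraries). Mesothelial markers, among them Msln and the keratins Krt8, Krt18 and Krt19, were present in every group, with summed levels of 1824 to 4186 CPM.

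Per kilobase of exon, the most abundant members in untreated d6 tumors were Aldoa (941 ± 89.5 CPM per kb, mean ± SD), Ldha (766 ± 56.7) and Pkm (666 ± 38.01), followed by Tpi1 (537 ± 53.8). Below them came Pgk1 (415 ± 36.2), Pgam1 (389 ± 28.01), Gapdh (149 ± 20.6) and Eno1 (114 ± 12.99). Only unique alignments were counted, and Gapdh and Eno1 share near-identical stretches with 81 and 2 other genes. The exon lengths also merge all annotated transcripts, so the places of Gapdh and Eno1 in this order are uncertain. The glucose transporter Slc2a1 stood at 149 ± 30.6 CPM per kb and its relative Slc2a3 at 2.21 ± 0.236. The enolase Eno2, best known from neurons, stood at 6.89 ± 1.09 CPM per kb beside Eno1, and the acid-handling enzyme Car9 at 2.32 ± 0.433.

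From untreated d6 to d10, 5 of the 35 members passed the test, all higher at d10 (14.3%, against 17.5% of all 16866 genes tested, with 10.5% higher and 7.03% lower). They were a glucose importer, a lactate exporter, a regulatory kinase and a pair of classical hypoxia markers. The glucose transporter Slc2a3 (chr6:122727809-122801640) stood at 15.96, 17.8 and 14.4 CPM in the d6 tumors and at 29.1, 31.8, 30.03, 31.8 and 40.8 in the d10 tumors (log2 fold change 1.02, SE 0.13, adjusted p = 0.0012). Slc16a3, which carries lactate out of the cell, rose from 76.00, 94.5 and 91.6 to 138, 172, 118, 139 and 154 CPM (0.72, SE 0.13, adjusted p = 0.0063). In both genes every d10 tumor lay above every d6 tumor. Pfkfb3, a kinase that makes the activator of phosphofructokinase, rose from 39.9, 42.8 and 47.2 to 73.3, 78.6, 77.4, 74.7 and 73.3 CPM (0.80, SE 0.093, adjusted p = 0.00073), and its d10 tumors lay within a narrow range. Egln3, a prolyl hydroxylase that marks HIF alpha for destruction and is itself induced by HIF, rose from 45.8, 51.1 and 33.6 to 101, 109, 86.8, 58.96 and 78.04 CPM (0.998, SE 0.22, adjusted p = 0.014). Car9, a carbonic anhydrase on the cell surface, rose from 4.65, 6.48 and 4.87 to 7.29, 8.24, 9.00, 9.51 and 15.1 CPM (0.87, SE 0.24, adjusted p = 0.034). Groups did not overlap in any of these genes, and the share of all genes without overlap was not counted here.

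No enzyme of the glycolytic steps passed between d6 and d10, and the median log2 fold change of the members was 0.037, against 0.027 over all genes. The 5 genes passed with the same direction against each part of the d10 tumors. Beside them, Ldha was lower against replicates 1 to 3 (-0.37, SE 0.10, adjusted p = 0.020) and higher against replicates 4 and 5 (0.41, SE 0.13, adjusted p = 0.034). Eno1 passed against replicates 4 and 5 alone (0.94, SE 0.14, adjusted p = 0.0014). The number passing was 8 against replicates 1 to 3 (6 higher and 2 lower), when 27% of all genes passed, and 15 against replicates 4 and 5 (11 higher and 4 lower), when 47.1% did. It was 3 without untreated d6 replicate 1 or replicate 3 (7.26% and 8.32% of all genes), when Slc2a3, Slc16a3 and Pfkfb3 still passed. Cell type markers also moved between these groups: 5 of 5 T cell markers were higher at d10 (summed 39.002 to 42.1 CPM at d6 and 206 to 280 at d10), as were 2 of 5 fibroblast markers (936 to 975 and 910.1 to 1354 CPM), and their part in the rise of the 5 members was not tested.

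From untreated d10 to d14, 6 of 35 members passed, 3 higher and 3 lower (17.1%, against 19.7% of 17659 genes, with 9.8% higher and 9.87% lower). The transporters that had been higher at d10 than at d6 were lower at d14 than at d10. Both comparisons use the same untreated d10 tumors, so the rise and the fall are not independent. Slc16a3 stood at 67.1, 45.8 and 60.2 CPM at d14 (log2 fold change -1.31, SE 0.16, adjusted p = 0.0049), below every d10 tumor and also below every d6 tumor. Slc2a3 stood at 24.1, 17.3 and 21.4 CPM (-0.63, SE 0.15, adjusted p = 0.019), below every d10 tumor and overlapping with d6. Gpi1, which turns glucose phosphate into fructose phosphate, stood at 891, 893, 808, 923 and 1068 CPM at d10 and at 688, 584 and 629 at d14 (-0.52, SE 0.12, adjusted p = 0.016), with no overlap. Eno2 (chr6:124760053-124769673) rose from 34.9, 44.1, 62.6, 35.5 and 45.2 to 73.6, 97.7 and 72.3 CPM (0.88, SE 0.20, adjusted p = 0.018). Kdm3a, a histone demethylase induced by HIF, rose from 76.6, 85.1, 114, 73.6 and 82.02 to 130.4, 158 and 139 CPM (0.73, SE 0.15, adjusted p = 0.014). Both were higher in each d14 tumor than in any d10 tumor. The second Aldoa entry, at 0.683, 0.921, 0.703, 0.965 and 0.928 CPM at d10 and 1.48, 1.89 and 1.41 at d14 (0.93, SE 0.22, adjusted p = 0.021), was higher without overlap and rests on few counts.

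Against d10 replicates 1 to 3, 14 members passed (9 higher and 5 lower), when 34% of all genes did, and against replicates 4 and 5, 10 did (4 higher and 6 lower), when 33.2% of all genes did. Slc2a3, Slc16a3, Gpi1, Eno2 and Kdm3a passed against both parts in the same direction. Eno1 was higher at d14 against replicates 1 to 3 (0.79, SE 0.093, adjusted p = 0.0011), and its log2 fold change against replicates 4 and 5 was -0.36. Without untreated d14 replicate 2 only Slc16a3 passed among the members, when 3.47% of all genes did. The markers of macrophages and T cells fell between these groups: 5 of 6 macrophage markers were lower at d14 (summed 1430 to 2374 CPM at d10 and 660 to 905 at d14), as were 5 of 5 T cell markers (206 to 280 and 86 to 153 CPM), and their part in the fall of Slc16a3 and Slc2a3 was not tested.

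The comparison of d14 with d6 leaves the d10 tumors out. Here 16 of 35 members passed, 11 higher and 5 lower (45.7%, against 51.5% of 17172 genes, with 25.5% higher and 26% lower), so members passed no more often than genes at large. Of the 7 pay-off members 3 were higher and 0 lower, of the 9 preparatory members 1 was higher and 3 were lower, and all 3 regulatory kinases were higher, and no difference between these roles was tested. Over the same groups 5 of 5 T cell markers (summed 39.002 to 42.1 CPM at d6 and 86 to 153 at d14) and 3 of 5 endothelial markers (59.7 to 77.5 and 85 to 104 CPM) were higher, and 4 of 6 macrophage markers were lower (1398 to 1505 and 660 to 905 CPM). The part of these cells in the members' differences was not tested. The d6 and d14 tumors also lie on either side of the divide in the Gapdh copy share given above, so that time and whatever set those libraries apart cannot be told apart.

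Among pay-off enzymes, Eno2 stood at 27.3, 32.5 and 37.5 CPM at d6 (log2 fold change 1.33, SE 0.15, adjusted p = 0.00020). Eno1, the common enolase, rose from 564, 694 and 584 to 935, 937 and 915 CPM (0.60, SE 0.10, adjusted p = 0.0010). Pgk1, which makes the first ATP of the pay-off phase, rose from 890.2, 1025 and 878 to 1106, 1174 and 1229 CPM (0.33, SE 0.093, adjusted p = 0.016). In all 3 genes the d14 tumors lay above the d6 tumors. Among the kinases, Pfkfb4, a relative of Pfkfb3, rose from 38.2, 44.3 and 41.3 to 65.8, 70.8 and 72.4 CPM (0.76, SE 0.086, adjusted p = 0.00019). Pdk1, which shuts pyruvate out of the mitochondrial oxidation by phosphorylating pyruvate dehydrogenase, rose from 103, 102 and 95.7 to 139, 143 and 127 CPM (0.45, SE 0.082, adjusted p = 0.0021). Pfkfb3 stood at 62.99, 53.9 and 81.8 CPM at d14 (0.62, SE 0.14, adjusted p = 0.0063). No d14 tumor overlapped with d6 in these kinases.

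On the lower side, Gpi1 stood at 844, 914 and 777 CPM at d6 (log2 fold change -0.41, SE 0.10, adjusted p = 0.0065). Pfkp, the platelet form of phosphofructokinase, fell from 664, 687 and 632 to 547, 529 and 467 CPM (-0.36, SE 0.09, adjusted p = 0.0096). Aldoa, the main aldolase, fell from 2646, 3033 and 2537 to 2311, 2039 and 2111 CPM (-0.34, SE 0.10, adjusted p = 0.018). The second Aldoa entry went the other way, from 0.485, 0.672 and 0.991 to 1.48, 1.89 and 1.41 CPM (1.16, SE 0.30, adjusted p = 0.012). Of the transporters, Slc16a3 was lower at d14 (-0.60, SE 0.14, adjusted p = 0.0067), whereas Slc2a3 was higher by a smaller step with overlapping groups (0.38, SE 0.14, adjusted p = 0.047).

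Of the 13 other hypoxia-induced members, 3 were higher and 1 lower at d14. Car9 stood at 14.5, 15.5 and 13.6 CPM at d14 (log2 fold change 1.45, SE 0.16, adjusted p = 0.00017), more than any d6 tumor, and had the largest log2 fold change of the members in this comparison. Ndrg1, a stress protein that many hypoxic cells make, rose from 661, 832 and 497 to 1210.2, 1165 and 1006 CPM (0.77, SE 0.17, adjusted p = 0.0056). Kdm3a rose from 102, 95.2 and 90.9 CPM at d6 (0.57, SE 0.10, adjusted p = 0.0014). Again the groups did not overlap. Ankrd37, an ankyrin repeat protein induced by HIF, fell from 22.7, 23.7 and 18.2 to 16.4, 16.1 and 13.3 CPM (-0.49, SE 0.14, adjusted p = 0.016). Without any 1 tumor, 14 to 17 members passed, when 40.6% to 50.1% of all genes did. Of the members, 12 passed in each of these 6 fits, among them Car9, Eno1, Eno2, Pfkfb4, Pdk1, Ndrg1 and Slc16a3.

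**Figure D1:**
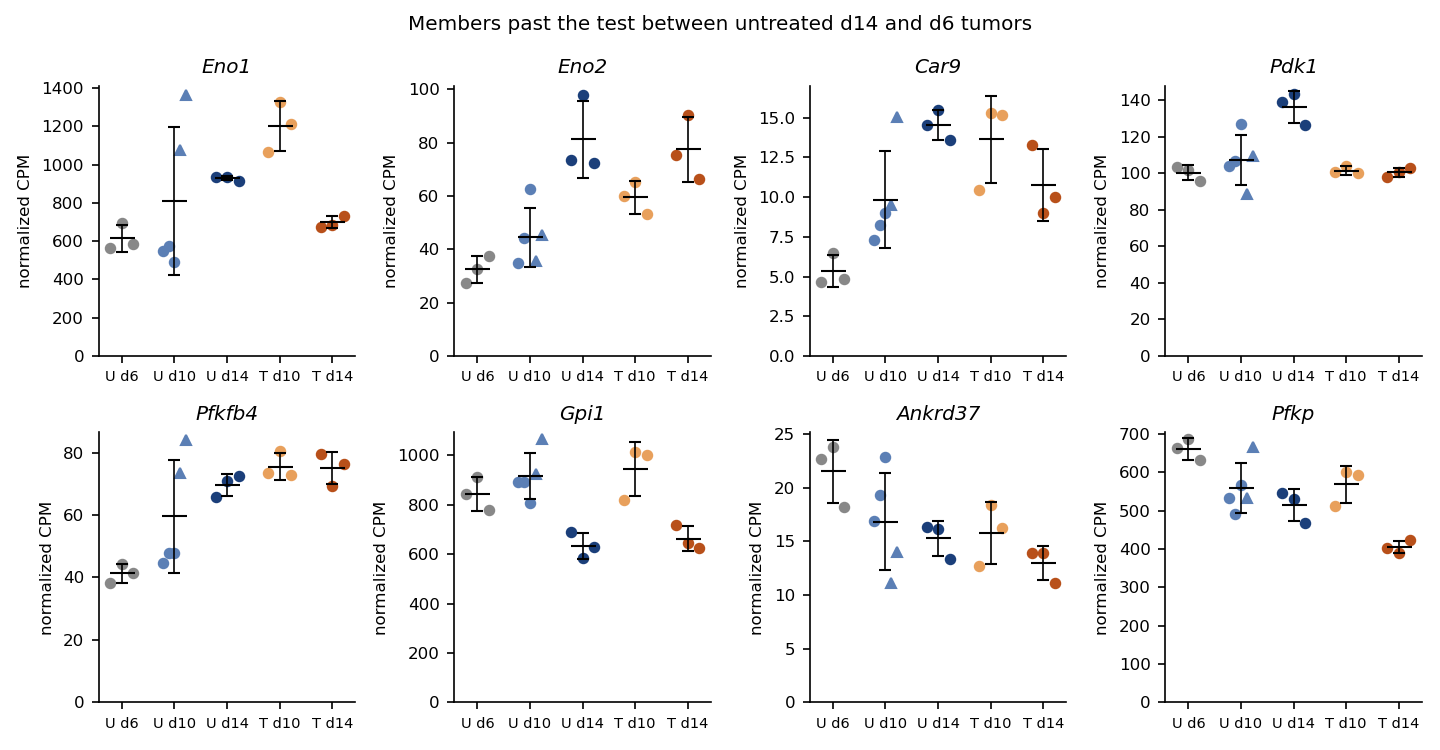
Normalized CPM (y axes, from 0) of 8 members that passed between untreated d14 and d6 tumors, by group (U, untreated; T, anti-CTLA4 treated; d, day of collection). Points are tumors, triangles are untreated d10 replicates 4 and 5, and bars give the mean ± SD; Eno2 sits at 72.3 to 97.7 CPM in the untreated d14 tumors, above all d6 tumors, and Gpi1 sits at 584 to 688 CPM, below them.

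At d14, treated tumors differed from untreated ones in both directions. Of 35 members 18 passed, 4 higher and 14 lower in treated tumors (51.4%, against 32.4% of 18062 genes, with 17.7% higher and 14.8% lower). Past a fold of 2 were 3 of the higher and 1 of the lower members (11.4%, against 11.5% of genes). Most members are highly expressed, and among the 9720 genes with a mean of at least 10 CPM 36.4% passed and 21.1% were lower, beside 14 lower members of 35 (40%). The median log2 fold change of the members was -0.27, against -0.0043 over all genes, and the values of 27 members were negative. The 4 higher members, Slc2a3, Slc16a3, Pfkfb3 and Egln3, are also 4 of the 5 that were higher at d10 than at d6 in untreated tumors. How many of all genes were higher in both comparisons was not counted, so no trait of the members is to be read from this. The untreated d14 tumors also enter the comparisons over time above, and the treated d14 tumors do not.

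Slc16a3 stood at 67.1, 45.8 and 60.2 CPM in untreated and at 152, 137 and 109 in treated d14 tumors (log2 fold change 1.27, SE 0.17, adjusted p = 0.0050). Slc2a3 stood at 24.1, 17.3 and 21.4 and 42.2, 40.8 and 35.8 CPM (0.98, SE 0.13, adjusted p = 0.0050). Pfkfb3 stood at 62.99, 53.9 and 81.8 and 132, 145 and 114 CPM (1.04, SE 0.16, adjusted p = 0.0062). Egln3 stood at 75.2, 51.8 and 48.3 and 130.4, 134 and 86.6 CPM (1.07, SE 0.22, adjusted p = 0.011). In each of the 4 genes the lowest treated tumor lay above the highest untreated one, and the Pfkfb3 level of every treated d14 tumor was above that of all other tumors of the series.

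**Figure D2:**
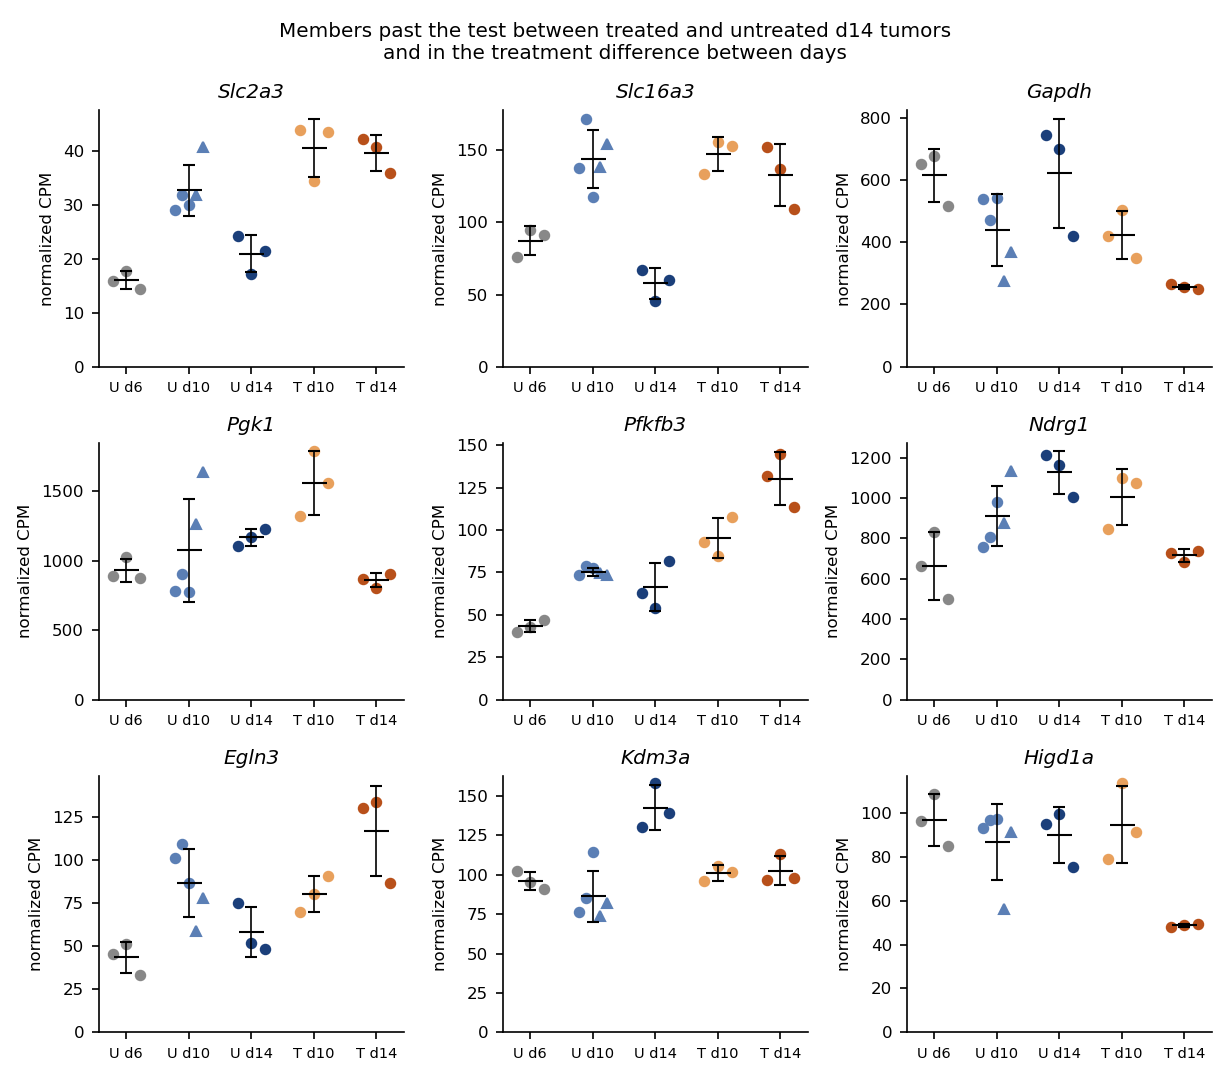
Normalized CPM (y axes, from 0) of the 9 members that passed both between treated and untreated d14 tumors and in the treatment difference between days, by group (U, untreated; T, anti-CTLA4 treated). Points are tumors, triangles are untreated d10 replicates 4 and 5, and bars give the mean ± SD; Slc16a3 sits at 109 to 152 CPM in the treated and at 45.8 to 67.1 CPM in the untreated d14 tumors.

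Of the 7 pay-off enzymes, 5 were lower after treatment and 0 higher. Gapdh (chr6:125161715-125166467), which makes the first high-energy intermediate, stood at 744, 700.5 and 421 CPM in untreated and at 265, 255 and 249 in treated d14 tumors (log2 fold change -1.21, SE 0.19, adjusted p = 0.0064). Reads of this gene are shared with 81 near-identical genes, 76 of them annotated pseudogenes, which held 19.2% to 19.4% of the summed counts in untreated and 23.2% to 24.3% in treated d14 tumors. The sum of Gapdh and these copies, in CPM without TMM scaling, was 539 to 940 in untreated and 356 to 370 in treated tumors, again without overlap. Reads that fit Gapdh and a copy equally well were not counted, and this sum does not recover them. Pgk1 stood at 1106, 1174 and 1229 and 871, 803 and 903 CPM (-0.38, SE 0.074, adjusted p = 0.010). Eno1 stood at 935, 937 and 915 and 675, 685 and 733 CPM (-0.35, SE 0.065, adjusted p = 0.0092). Pkm, the last step to pyruvate, stood at 3892, 3657 and 3406 and 2808, 2648 and 2817 CPM (-0.34, SE 0.08, adjusted p = 0.018). In these 3 genes, too, no treated tumor reached the level of an untreated one. Ldha, which makes lactate, stood at 2609, 2684 and 2242 and 1999.8, 1728 and 1924 CPM (-0.35, SE 0.093, adjusted p = 0.026). Eno2 was the pay-off member whose groups overlapped, at 75.5, 90.5 and 66.3 CPM in treated tumors, and its log2 fold change was 9.3e-05 with SE 0.15.

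In the preparatory phase, 2 of 9 members were lower and 0 higher. Hk1, the hexokinase found in most tissues, stood at 663, 577 and 571 CPM in untreated and at 474, 458 and 505 in treated tumors (log2 fold change -0.27, SE 0.084, adjusted p = 0.043). Pfkp stood at 547, 529 and 467 and 404, 389 and 423 CPM (-0.28, SE 0.079, adjusted p = 0.031). The treated tumors lay below the untreated ones in both. Pdk1 was the regulatory kinase that fell, from 139, 143 and 127 to 98.03, 101 and 103 CPM (-0.37, SE 0.071, adjusted p = 0.0099), while Pfkfb4 was at 79.5, 69.2 and 76.4 CPM and did not pass (0.17, SE 0.077, adjusted p = 0.12).

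Of the 13 other hypoxia-induced members, 6 were lower and 1, Egln3, was higher. Higd1a, a small protein of the mitochondrial respiratory chain, stood at 94.9, 99.4 and 75.5 CPM in untreated and at 48.1, 48.8 and 49.5 in treated tumors (log2 fold change -0.82, SE 0.11, adjusted p = 0.0049). Bnip3, a receptor for the removal of mitochondria, stood at 428, 428 and 353 and 263, 248 and 242 CPM (-0.62, SE 0.09, adjusted p = 0.0057). Ndrg1 stood at 1210.2, 1165 and 1006 and 728, 679.9 and 738 CPM (-0.59, SE 0.086, adjusted p = 0.0057). In these genes the treated tumors differed little among themselves. Kdm3a stood at 130.4, 158 and 139 and 96.8, 113 and 98.05 CPM (-0.41, SE 0.10, adjusted p = 0.019). Mxi1, which opposes Myc, stood at 138, 125 and 99.2 and 84.8, 85.1 and 85.7 CPM (-0.44, SE 0.12, adjusted p = 0.027). Bhlhe40, a transcriptional repressor, stood at 423, 425 and 315 and 285, 270.3 and 272 CPM (-0.42, SE 0.12, adjusted p = 0.027). None of these 6 overlapped between the groups. Car9 was also without overlap, at 13.3, 9.00 and 10.02 CPM in treated tumors, and did not pass (-0.37, SE 0.15, adjusted p = 0.093). Bnip3 shares near-identical stretches with 3 other genes, and how reads were divided among them is uncertain. Together these genes held 460 to 1135 CPM without TMM scaling over the 17 libraries. Bnip3 itself lay between 242 and 552 normalized CPM, so its difference is less certain than its p-value.

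Across all members, 4 lay higher and 20 lower in every treated than in every untreated d14 tumor, as 22.6% and 31% of all genes did. Leaving out 1 tumor changed the number passing to between 10 and 21. Without treated d14 replicate 1, 2 or 3 it was 10, 10 and 11, when 14.4%, 13.2% and 22.2% of all genes passed. Slc2a3, Slc16a3, Gapdh, Pfkfb3, Pdk1, Bnip3, Ndrg1, Egln3 and Higd1a passed in each of the 6 fits. With treated d14 replicate 2 alone, the treated d14 tumor without acinar RNA, log2 fold changes were 1.33 for Slc16a3, 1.21 for Pfkfb3, -1.20 for Gapdh and -0.80 for Higd1a. All 18 members that had passed kept their direction. That was bound to happen, since none of them overlapped between the groups, so it does not bear on the acinar RNA.

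**Figure D3:**
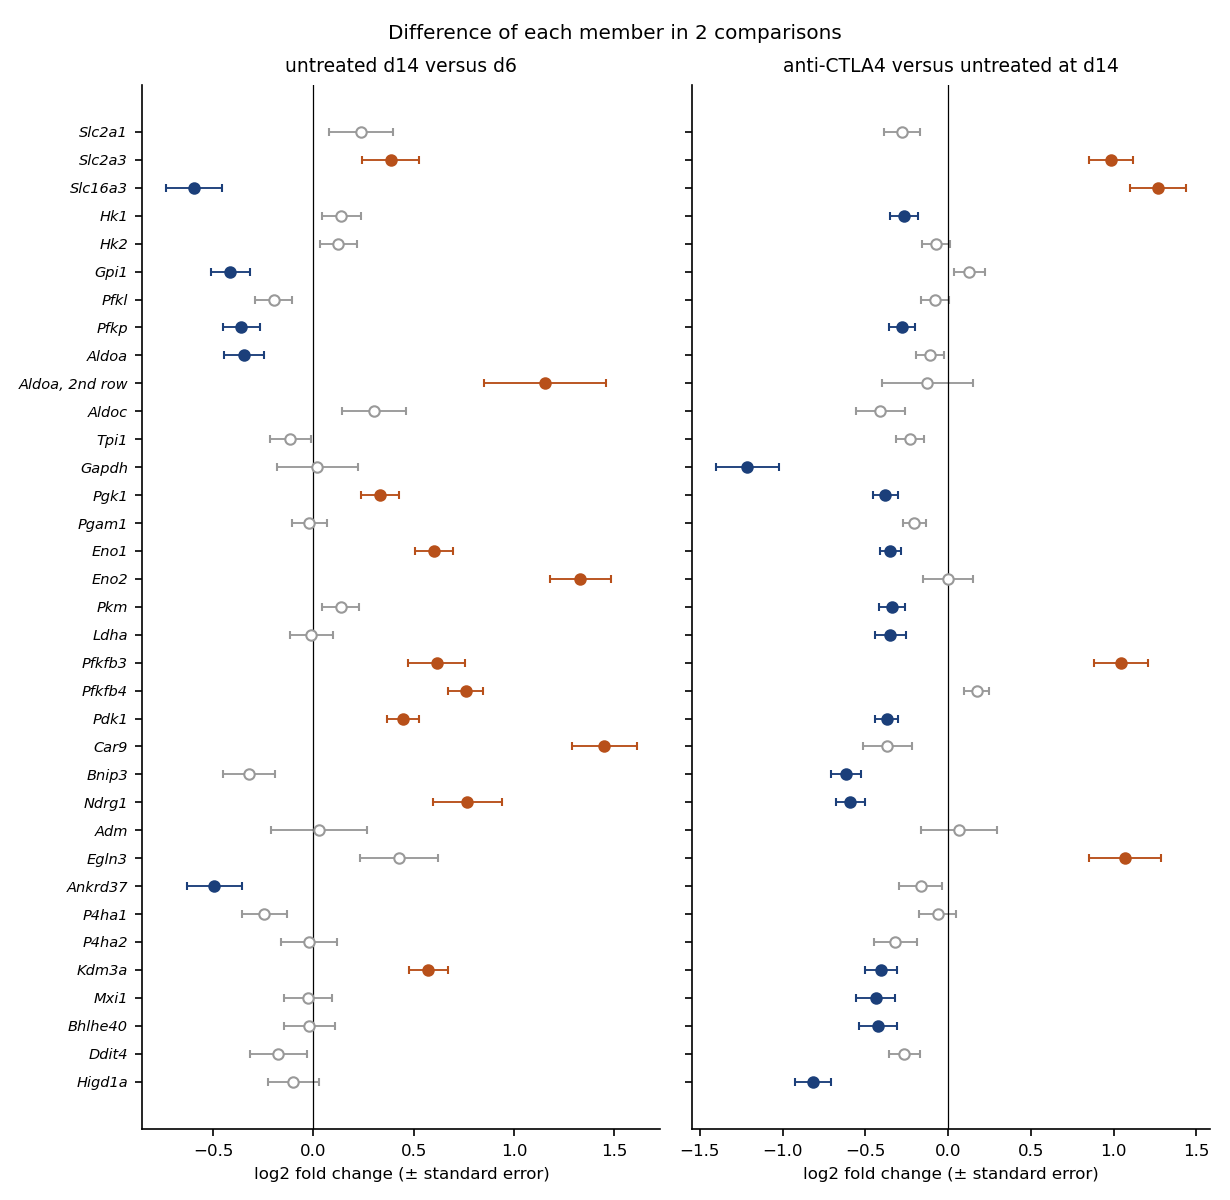
Log2 fold change ± standard error (x axes) of each of the 35 members (y axis) between untreated d14 and d6 tumors, left, and between treated and untreated d14 tumors, right. Filled points passed the test (orange, higher; blue, lower) and open grey points did not; 11 points are orange and 5 blue on the left, and 4 are orange and 14 blue on the right.

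Markers of several cell types moved between the same groups. At d14, 5 of 5 fibroblast markers were higher in treated tumors (summed 539 to 1041 CPM untreated and 1313 to 2013 treated), as were 5 of 6 macrophage markers (660 to 905 and 1419 to 1793) and 5 of 5 T cell markers (86 to 153 and 215 to 240). Endothelial markers were higher in 2 of 5 (85 to 104 and 138 to 165 CPM) and neutrophil markers in 3 of 6 (60.6 to 115 and 145 to 198 CPM). On the lower side were 4 of 5 markers of cycling cells (1564 to 1629 and 1054 to 1217 CPM) and, among mesothelial markers, the keratins Krt8 (-0.37 log2), Krt18 (-0.46) and Krt19 (-0.77), while Wt1 (1.54) and Lrrn4 (2.19) were higher. The part of these shifts in the differences of Slc2a3, Slc16a3 and Pfkfb3 or of the glycolytic enzymes was not tested. Of the other lists, 1 of 5 red blood cell markers, 1 of 3 tested adipocyte markers, 1 of 2 tested skeletal muscle markers and 4 of 4 tested acinar markers were higher, and the adipocyte and muscle sums in d14 tumors were 0.773 to 5.69 and 0.721 to 1.38 CPM.

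**Figure D4:**
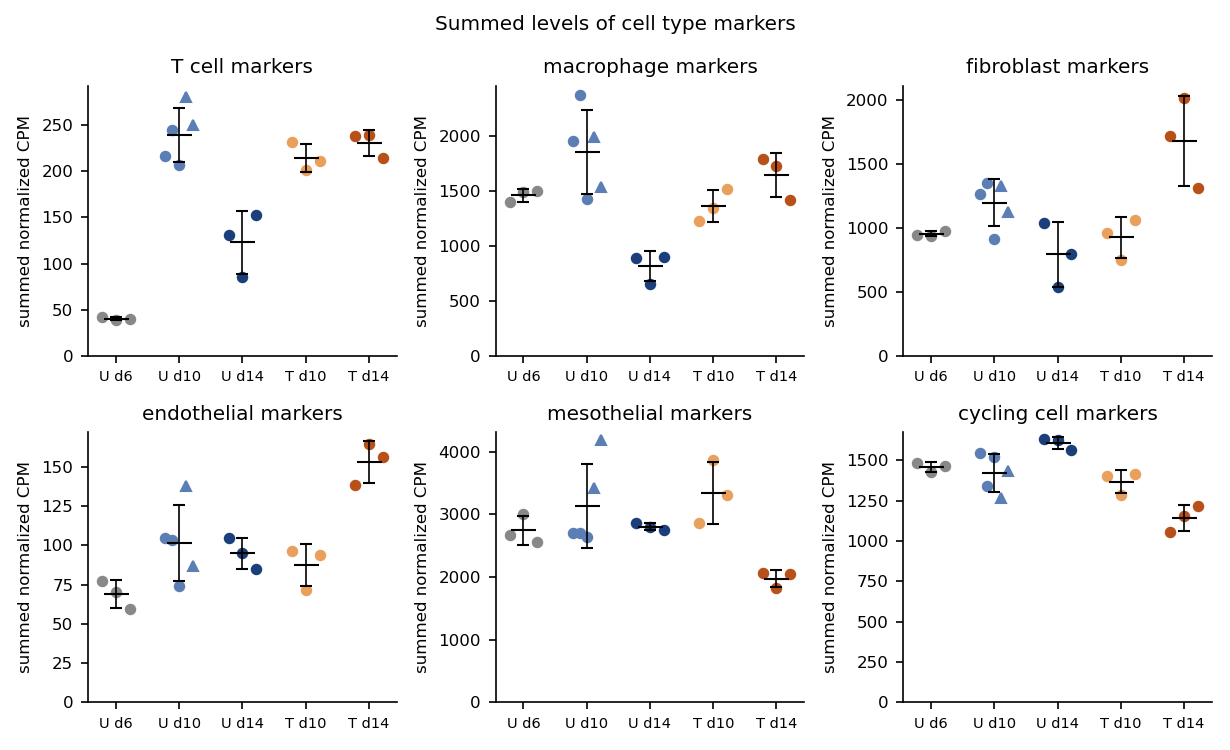
Summed normalized CPM (y axes, from 0) of the markers of 6 kinds of cell in each tumor, by group (U, untreated; T, anti-CTLA4 treated). Points are tumors, triangles are untreated d10 replicates 4 and 5, and bars give the mean ± SD; the macrophage sum is 660 to 905 CPM in untreated and 1419 to 1793 CPM in treated d14 tumors.

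At d10 no member passed between treated and untreated tumors (0 of 35, with 3 of 17258 genes, 0.0174%, past the threshold, all higher). At an unadjusted p-value below 0.05 there were 4 members and 2329 genes (13.5%), and DESeq2 called 1 member and 2.67% of all genes. The smallest adjusted p-value was that of Ddit4, an inhibitor of mTORC1 signaling under stress, which stood at 85.2, 101, 101, 123 and 124 CPM in untreated and at 130.4, 190.2 and 156 in treated d10 tumors (log2 fold change 0.57, SE 0.14, adjusted p = 0.21). Every treated tumor lay above every untreated one. Pfkfb3, at 92.8, 84.6 and 108 CPM in treated d10 tumors, did so too (0.33, SE 0.10, adjusted p = 0.26). Eno1 stood at 549, 574, 491, 1076 and 1363 CPM in untreated and at 1066, 1329 and 1214 in treated d10 tumors (0.57, SE 0.31, adjusted p = 0.44), with untreated replicate 4 within the treated range, replicate 5 just above it and replicates 1 to 3 far below it.

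The result depended on that split. Against untreated d10 replicates 1 to 3 alone, 14 members passed, 12 higher and 2 lower in treated tumors, when 29.6% of all genes did. They included Eno1 (1.14, SE 0.11, adjusted p = 0.00025), Pgk1 (0.90, SE 0.12, adjusted p = 0.00097), Car9 (0.72, SE 0.15, adjusted p = 0.0085), Ddit4 (0.71, SE 0.13, adjusted p = 0.0038) and Ldha (0.66, SE 0.12, adjusted p = 0.0041), with Adm (-0.50, SE 0.17, adjusted p = 0.046) and Mxi1 (-0.36, SE 0.094, adjusted p = 0.020) on the lower side. Against replicates 4 and 5 alone, 0 members passed, with 0.631% of genes past the threshold, and the log2 fold change of Eno1 was 0.0027 and that of Pgk1 0.13. The labels of the untreated d10 tumors give no reason for the split. Replicates 1 to 3 lie across the divide in the Gapdh copy share from the treated d10 tumors (12.3% to 14.9% against 23.5% to 24.2%). Replicates 4 and 5 lie on the same side as those tumors (29.4% and 26.6%). Against replicates 1 to 3, treatment and whatever set those libraries apart therefore cannot be told apart.

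**Figure D5:**
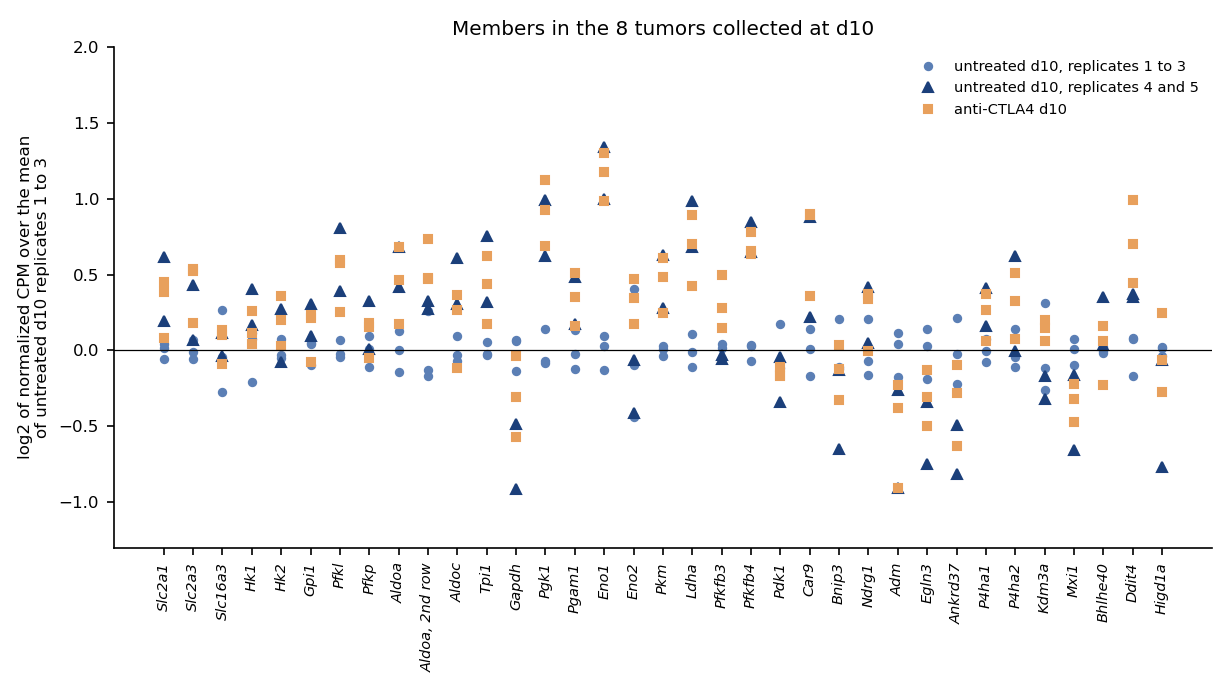
Log2 of the normalized CPM of each member (x axis) in each of the 8 d10 tumors over the mean of untreated d10 replicates 1 to 3 (y axis). Circles are untreated replicates 1 to 3, triangles are untreated replicates 4 and 5, and squares are treated tumors; for Eno1 replicates 4 and 5 (1076 and 1363 CPM) sit with the treated tumors (1066 to 1329 CPM) and apart from replicates 1 to 3 (491 to 574 CPM).

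Whether the treatment difference itself changed from d10 to d14 was tested with an interaction contrast over the 4 groups. The treated d10 and d14 tumors may also differ in the injections received, so day and injections cannot be told apart. Of 35 members 10 passed (28.6%, against 17.7% of 18574 genes), 4 with a difference more positive at d14 (11.9% of genes) and 6 with one more negative (5.85% of genes). Slc16a3 had a treatment difference of 1.27 at d14 and 0.03 at d10 on the log2 scale (interaction 1.23, SE 0.21, adjusted p = 0.0040). For Egln3 the differences were 1.07 and -0.12 (interaction 1.18, SE 0.32, adjusted p = 0.021). The interaction of Pfkfb3 was 0.70, SE 0.19, adjusted p = 0.021, and that of Slc2a3 was 0.66, SE 0.20, adjusted p = 0.035. In these 4 the treatment difference was more positive at d14. Higd1a had differences of -0.82 at d14 and 0.11 at d10 (interaction -0.94, SE 0.25, adjusted p = 0.022). Ddit4, at 90.7, 92.3 and 100.4 CPM in untreated and 66.4, 79.3 and 79.5 in treated d14 tumors, had differences of -0.27 and 0.57 (interaction -0.85, SE 0.19, adjusted p = 0.0094). It was the member whose treated tumors lay above the untreated ones at d10 and below them at d14.

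Gapdh, Pgk1, Ndrg1 and Kdm3a also had a more negative difference at d14, with interactions of -1.16, -0.93, -0.74 and -0.64 on the log2 scale. The number passing was 24 with untreated d10 replicates 1 to 3 (4 positive and 20 negative), when 35.6% of all genes passed, and 10 with replicates 4 and 5 (3 positive and 7 negative), when 24.9% did. With replicates 1 to 3, the untreated d10 tumors lie across the divide in the Gapdh copy share from the other groups of this contrast. The number was 18 without untreated d10 replicate 5 (22.6% of all genes), 5 without untreated d14 replicate 1 (12.2%) and 3 without untreated d14 replicate 2 (10%). It was 2 without treated d10 replicate 2 (11.1%), and 3 and 5 without treated d14 replicates 1 and 2 (9.5% and 9.8%). Slc16a3 and Ddit4 passed in each of the 14 fits with 1 tumor left out. With treated d14 replicate 2 alone, the 10 kept their direction. This tumor is among those by which they had passed, so that is no separate support. Of the markers, 5 of 5 for fibroblasts, 5 of 6 for macrophages and 4 of 5 for T cells had a more positive treatment difference at d14, and their part in these interactions was not tested.

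The last comparison set treated d14 tumors against untreated d10 tumors, and it shares its samples with those above. Of 35 members 12 passed, 2 higher and 10 lower in treated d14 tumors (34.3%, against 27.7% of 18057 genes, with 12.4% higher and 15.3% lower), and 0 were past a fold of 2, as 7.83% of genes were. Library size without TMM gave 7 members, 4 higher and 3 lower, and moved the median log2 fold change of all genes from -0.035 to 0.11, so directions here are relative to the TMM scale. Pfkfb3 (log2 fold change 0.79, SE 0.10, adjusted p = 0.0018) and Eno2 (0.80, SE 0.20, adjusted p = 0.016) were higher, with no overlap. Slc16a3 (-0.11, SE 0.14) and Slc2a3 (0.28, SE 0.12) did not pass, and their treated d14 levels overlapped with untreated d10.

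Aldoc, the brain form of aldolase, stood at 30.5, 29.8, 33.3, 38.5 and 47.5 CPM in untreated d10 and at 23.9, 23.1 and 23.5 in treated d14 tumors (log2 fold change -0.61, SE 0.15, adjusted p = 0.019). Higd1a, at 93.1, 96.7, 96.9, 56.1 and 91.2 CPM in untreated d10 tumors, was lower as well (-0.83, SE 0.18, adjusted p = 0.0099), as were Gapdh, Bnip3, Ddit4, Mxi1, Gpi1, Pfkp, Bhlhe40 and Hk1 (-0.78 to -0.41 on the log2 scale). The groups overlapped in Mxi1 and in none of the other 9, and the share of all genes without overlap was not counted here. The number passing was 19 against untreated d10 replicates 1 to 3, when 45.4% of all genes passed, and 20 against replicates 4 and 5, when 43.8% did. It was 5, 1 and 3 without treated d14 replicate 1, 2 and 3, when 14.7%, 9.66% and 15.1% of all genes passed. Pfkfb3 was the member that passed in each fit with 1 tumor left out.

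Of the 35 members 8 passed in none of the 7 comparisons. Slc2a1, the glucose transporter of most tumor cells, ranged from 422 to 796 CPM over the 17 tumors, and Hk2, the inducible hexokinase, from 296 to 399 CPM. Pfkl, Tpi1 and Pgam1 lay between 325 and 620, 1054 and 2165, and 594 and 1023 CPM. Adm, a vasodilator peptide, lay between 6.28 and 17.02 CPM, and the collagen prolyl hydroxylases P4ha1 and P4ha2 between 260 and 427 and between 81.2 and 153 CPM. A missed threshold does not show that these genes were alike between groups, and Slc2a1, Tpi1 and Pgam1 had lower values without overlap in treated d14 tumors (-0.28, SE 0.11, -0.23, SE 0.084 and -0.21, SE 0.069 on the log2 scale).

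Genes next to the members in the same pathways were followed as lists, whose counts stand beside the 51.5% of all genes that passed from d6 to d14 in untreated tumors and the 32.4% that passed after treatment at d14. Among 9 regulators of HIF, Epas1, which codes for the HIF-2 alpha subunit, was higher in treated than in untreated d14 tumors (1.37, SE 0.22) and Hif1a was higher by less (0.32, SE 0.077). Vhl (-0.34) and Egln1 (-0.32), which together mark HIF alpha for destruction, and Cited2 (-0.51), which competes with it for a coactivator, were lower. From d6 to d14 in untreated tumors, 3 of these 9 were higher, led by Hif3a (2.21, SE 0.45) and Epas1 (0.78, SE 0.23), and Cited2 was lower (-0.39, SE 0.10). Of 21 tested further hypoxia-induced genes, 4 were higher and 3 lower at d14 than at d6, a smaller share than among all genes. Vegfa, the main vessel growth factor, was 0.96, SE 0.15 on the log2 scale and the collagen cross-linker Lox 1.29, SE 0.25, and on the lower side were Stc2 (-0.55, SE 0.082) and Loxl2 (-0.37, SE 0.12). After treatment at d14 the same list had 5 higher and 7 lower. Loxl2 (0.91) and Plod2 (0.87), which modify collagen, and Ak4 (0.95) led the higher ones, and Car12 (-0.74), Vldlr (-0.73) and Ero1l (-0.57) the lower ones.

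The entry of pyruvate into mitochondria was followed with 12 genes of the pyruvate carrier, pyruvate dehydrogenase and its kinases and phosphatases. In untreated tumors 8 were lower and 1 higher at d14 than at d6, where 51.5% of all genes passed. The lower ones included the carrier subunit Mpc1 (-0.89, SE 0.10), the dehydrogenase subunits Pdhb (-0.56, SE 0.083) and Pdhx (-0.68, SE 0.089) and the kinases Pdk3 (-1.09, SE 0.093) and Pdk4 (-1.44, SE 0.30), while the phosphatase Pdp1 was higher (0.29, SE 0.088). Between treated and untreated d14 tumors 2 were higher, the kinases Pdk4 (1.86, SE 0.27) and Pdk2 (0.98, SE 0.27), and 5 were lower. Among 10 tested glycolytic genes that are not members, the treated d14 tumors were higher in 3, the insulin-regulated glucose transporter Slc2a4 (1.72), the leukocyte hexokinase Hk3 (1.31) and Ldhb (1.14), and lower in Slc16a1, a lactate transporter (-0.49).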

How the data were processed

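The data are RNA-seq counts of 17 AB12 tumor libraries, 1 per mouse. Per the labels and the study's methods, the authors made KAPA RNA HyperPrep libraries and sequenced reads of 75 or 100 bases, which TopHat2 2.0.14 aligned to GRCm38. Unique alignments were then assigned to Gencode vM21 genes by HTSeq. The deposited values are these whole-number counts, without normalization, for 55450 genes, and whether counting used strand is not given in the sources used here. Every column was matched to a sample label.

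Each comparison of groups was fitted with edgeR 4.0.16 in R 4.3.3 (filterByExpr, TMM, quasi-likelihood test, Benjamini-Hochberg adjustment over all genes tested), with the compared groups only. Members passed below an adjusted p-value of 0.05. For the standard error, each log2 fold change was divided by the root of its F statistic. The scripts were tested on simulated data. Near-identical genes were found with BLAST 2.17.0 (at least 100 bases at 98% identity). Promoter sequences are from RefSeq (GRCm38.p6), which matched 31 of the 34 symbols, and Bhlhe40, Ndrg1 and Slc2a3 had no entry. Python 3.11.15 with matplotlib 3.10.9 drew the figures.

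All members were counted, those that passed in at least 1 comparison were given per tumor, and pathway genes were named when they passed, at most 6 per list by size. The members, lists and tests were chosen with earlier results of these data known. Alternatives were DESeq2 1.42.0, no TMM, 2 other filters on low counts, all 5 groups in one fit, protein coding genes only, the replicate number as a block, each tumor left out, each part of the untreated d10 tumors and, added after seeing the data, treated d14 replicate 2 alone. Total counts per library lay between 46371577 and 96759833. The p-values weigh each difference between groups against the spread between tumors of a group, and differences between sequencing projects are not set apart in them.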

Additional observations from a re-analysis of the deposited data

Results flagged for a closer look

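Within the 5 untreated d10 tumors, 1 tumor lay far from the other 4 for 5 of the 35 members, where chance alone sets about 1 in 20 groups apart in this way. Replicate 5 was far above the rest for Slc2a3 (40.8 CPM, with the next tumor at 31.8), for Car9 (15.1 CPM, next 9.51) and for Bhlhe40 (446 CPM, next 357). Replicate 3 was far above the rest for Kdm3a (114 CPM, next 85.1), and replicate 4 was far below the rest for Higd1a (56.1 CPM, next 91.2). Groups of 3 tumors were not checked in this way.

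The difference between treated and untreated tumors was not the same at d14 as at d10 for 10 members in the interaction test of edgeR's quasi-likelihood fit. On the log2 scale it was more positive at d14 for Slc16a3 (1.23, SE 0.21), Egln3 (1.18, SE 0.32), Pfkfb3 (0.70, SE 0.19) and Slc2a3 (0.66, SE 0.20). It was more negative at d14 for Gapdh (-1.16, SE 0.34), Higd1a (-0.94, SE 0.25), Pgk1 (-0.93, SE 0.30), Ddit4 (-0.85, SE 0.19), Ndrg1 (-0.74, SE 0.19) and Kdm3a (-0.64, SE 0.20). Adjusted p-values in this test lay between 0.0040 for Slc16a3 and 0.043 for Pgk1. Both days contribute untreated tumors to this contrast, and the untreated d10 tumors include replicates 4 and 5, which stood apart.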

How the results depend on the processing

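The replicate numbers do not pair the tumors. Over 30 pairs of same-numbered tumors of different groups the correlation of their deviations lay between -0.265 and 0.140 and was over 0.1 in 4. With the replicate block the number of members passing was 8 from d6 to d10 (22.5% of all genes) and 11 from d10 to d14 (23.5%). It was 16 between treated and untreated tumors at d10 (31.5%) and 22 in the treatment difference between days (33.3%). In that block Eno1 turned higher in treated d14 than in untreated d10 tumors (log2 fold change 0.37). It did so against untreated d10 replicates 1 to 3 as well (0.37). Replicate numbers above 3 occur among the untreated d10 tumors alone. In comparisons with that group the block gave each such tumor a term of its own, which left it no weight in the group difference. The block is therefore no separate check on the fits with untreated d10 replicates 1 to 3.

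Against untreated d10 replicates 1 to 3 the numbers were 8 (d6 to d10), 14 (d10 to d14), 14 (treatment at d10), 19 (treated d14 against untreated d10) and 24 (treatment difference between days), and Ldha turned higher from d10 to d14 (0.37). Against replicates 4 and 5 they were 15 (d6 to d10), 10 (d10 to d14) and 20 (treated d14 against untreated d10), and Ldha turned higher from d6 to d10 (0.41). The cause was not tested. One fit of all 5 groups gave 8 from d6 to d10 (26.6% of all genes), and DESeq2 gave 1 for treatment at d10 (2.67%). Library size without TMM gave 7 for treated d14 against untreated d10 (27.8%). With treated d14 replicate 2 alone, 0 members passed between treated and untreated d14 tumors, 0 against untreated d10 and 1 in the treatment difference, in fits with 1 treated d14 tumor that is assumed to vary like the others. Leaving out 1 tumor gave 3 to 6 members from d6 to d10, 1 to 8 from d10 to d14, 14 to 17 from d6 to d14, 10 to 21 for treatment at d14, 0 to 0 at d10, 1 to 12 for treated d14 against untreated d10 and 2 to 18 for the treatment difference. The share of all genes that passed differed between these fits as well. From d6 to d14 no alternative moved the number of members by over 1.5 times. Over 245 values of single members, DESeq2 kept the side of the threshold in 233 and called 12 more, and no TMM kept it in 231, lost 8 and added 6. The second Aldoa entry, Adm and Car9 had the fewest counts over all tumors, and depth limits the precision of their values.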

Other observations

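Together the 35 members took 1.65% to 2.48% of all counts in the 17 tumors. The share was 1.65% to 1.70% in treated d14 tumors and 1.88% to 2.12% in untreated d14 tumors, without overlap. In untreated d10 tumors it was 1.74% to 1.76% in replicates 1 to 3, 1.99% in replicate 4 and 2.48% in replicate 5, and in treated d10 tumors it was 2.0% to 2.42%. Most of these counts belong to the glycolytic enzymes, transporters and their kinases, which took 1.42% to 1.47% in treated and 1.61% to 1.80% in untreated d14 tumors.

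Near-identical copies of Gapdh took different shares of the counts of Gapdh and its copies in different libraries. The share was 13.0% to 13.3% in untreated d6 tumors and 12.3% to 14.9% in untreated d10 replicates 1 to 3. It was 26.6% and 29.4% in untreated d10 replicates 4 and 5, 23.5% to 24.2% in treated d10 tumors, 19.2% to 19.4% in untreated d14 tumors and 23.2% to 24.3% in treated d14 tumors.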
